A study of Citrus sinensis with 6 samples.

Results

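The spliceosome genes of sweet orange (Citrus sinensis) were taken as all genes that the deposited table assigns to the KEGG spliceosome pathway and not also to the KEGG endocytosis pathway. Of 29875 genes listed, 234 carried the spliceosome pathway, 24 of these were also assigned to endocytosis, and 210 remained. The question was how the transcripts of the splicing machinery stood in leaves of salt-treated seedlings.

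The spliceosome is the nuclear machine that cuts introns out of precursor messenger RNA and joins the exons. It is built from small nuclear ribonucleoprotein particles (snRNPs), each made of a short RNA and its proteins. The U1 particle recognises the start of an intron and the U2 particle its branch point. The tri-snRNP of U4, U6 and U5 then joins, and RNA helicases and the Prp19 complex drive the rearrangements that lead to cutting and joining. A separate U12-type spliceosome handles a minor class of introns. In plants many precursor RNAs are spliced in more than one way, and the pattern can shift under stress. The deposited values are totals per gene and do not show which introns were removed.

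RNA was sequenced from leaves of tissue-cultured seedlings, with 3 libraries from plants given 2% NaCl and 3 libraries from control plants given no NaCl, both sampled at 14 days. The sample titles give sterile water for the controls, whereas the study's methods give MS medium (a standard plant culture medium) without added salt. The study's methods give several seedlings per replicate and do not state that they were pooled. If each library is a pool of them, the p-values measure the spread between pools. A treatment text shared by all 6 samples names boron instead of NaCl, and the groups used here follow the per-sample treatment entries. The titles call the NaCl samples leaf and the control samples leaf blades, so the leaf part and the salt cannot be told apart as sources of a difference. In bulk leaf, fewer cells of a type and less RNA per cell cannot be told apart either.

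Library totals here are the totals to which the FPKM are scaled, recovered from the FPKM. They were 17307079, 17778476 and 19520980 reads in NaCl, against 17558452, 14889420 and 14325408 reads in control. At these totals 1 read in a gene of 1 kb is worth 0.0512 to 0.0698 FPKM (fragments in a gene scaled to its length and to the library total). As a check of the tissue, 67 genes of photosynthesis and antenna proteins summed to 7443 to 11280 FPKM in NaCl and 4889 to 9627 FPKM in control, so leaf transcripts were present in every library. The groups overlapped in this sum, control replicate 2 had the lowest value, and the part of these levels in the results below was not tested.

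The table pairs no gene with a symbol, and none of the 210 identifiers matched the reference gene table used here. Members are therefore described by the Gene Ontology (GO) component and function terms deposited with them. A component term was given for 137 members and a function term for 109. One or more of the role terms used below (particles, complexes, helicases, prolyl isomerases) were present for 87 members, and 123 had none. Terms of the U12-type, precatalytic and catalytic step 2 spliceosomes and of nuclear speckles were not counted as role terms. Some members with no role term therefore have a stated place in splicing. The spliceosome label itself is the table's own, and 65 members carry neither kind of term.

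Most spliceosome genes were expressed in these leaves. Of the 210 members, 154 (73.3%) reached 0.5 FPKM in at least 3 libraries and were tested, against 57.9% of all listed genes. A further 33 members (15.7%, against 22.8% of all listed genes) were at 0 in all 6 libraries. The other 23 were low, with 2.02 FPKM as their highest value in any library, and 14 of them never reached 0.5 FPKM. Of the 56 untested members, 28 had no component term.

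No spliceosome gene passed the test in either direction. The test was limma on log2(FPKM + 1) over 17285 genes, with Benjamini-Hochberg adjustment and a threshold of 0.05, and 0 of 154 members passed, against 3.23% of all tested genes, 1.31% higher and 1.93% lower in NaCl. With an absolute log2 change of at least 1 asked for as well, the count was again 0, against 2.73% of all tested genes, 0.978% higher and 1.75% lower. At an unadjusted p of 0.05 or less, 25 members had higher and 12 had lower values in NaCl, which is 16.2% and 7.79% of the members. The matching shares of all tested genes were 19.1% and 11.2%, above the members' shares in both directions. With voom on the whole reads recovered from the FPKM, 0 members passed as well, against 1.06% of all genes higher and 1.67% lower. Quantile normalization gave 0 members too, against 1.11% higher and 2.37% lower.

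The fold changes of the members were small and lay close together. Their log2 fold changes, NaCl minus control, had a median of 0.11 and quartiles of -0.07 and 0.29, whereas all tested genes had a median of 0.18 and quartiles of -0.18 and 0.46. The whole range of the members was -1.24 to 0.67, against -6.04 to 4.42 over all tested genes. An absolute change of at most 0.5 was found for 132 members (85.7%), against 63.8% of all tested genes. The 95% confidence interval of 133 members (86.4%) lay wholly within a log2 change of 1 in both directions, against 54.4% of all tested genes, so for these members a change of more than 2-fold on this scale lay outside the interval.

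The members were also measured with less error than the average gene. Their median level was 26.3 FPKM, against 10.4 FPKM over all tested genes, and their median standard error was 0.15 log2 units, against 0.22. In the lowest of its 6 libraries the median member had 742.5 reads, against 193 reads for the median tested gene. The narrow spread was set beside that of other RNA pathways, without the members they share. The share within 0.5 log2 units was 87.7% of 73 RNA transport genes, 81.5% of 92 mRNA surveillance genes, 68.1% of 94 RNA degradation genes and 77.6% of 232 ribosome genes. The spliceosome share of 85.7% lay inside this span, and the narrow spread was not tested as particular to it.

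**Figure D1:**
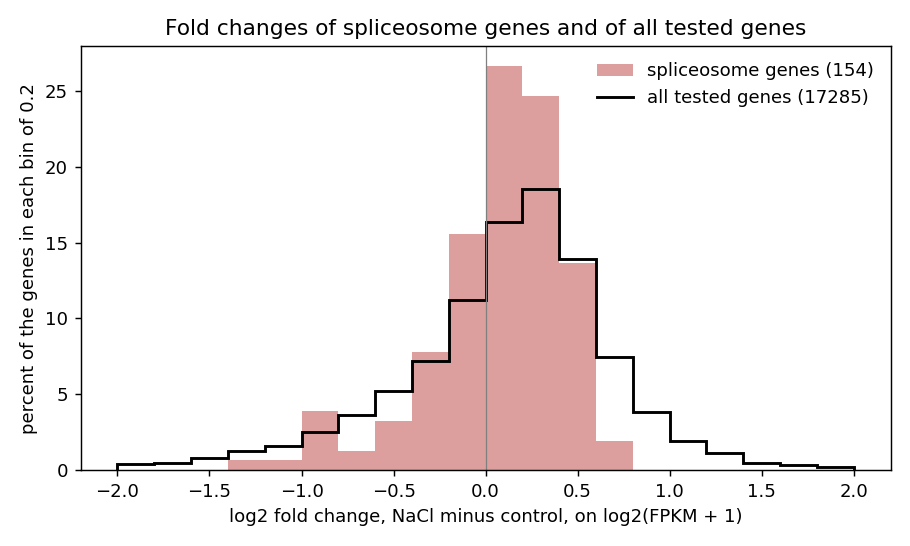
Log2 fold change on log2(FPKM + 1), NaCl minus control, on the x axis in bins of 0.2, and the percent of genes in each bin on the y axis, for the 154 tested spliceosome genes (filled) and for all 17285 tested genes (line). The filled bins end between -1.4 and 0.8, whereas the line runs on to both sides and 1.46% of all tested genes lie outside the plotted range of -2 to 2.

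Positive values were more common than negative ones, to about the same extent as in the whole table. Of the members, 103 (66.9%) had a positive and 51 a negative fold change, and 64.7% of all tested genes were positive. The NaCl and control libraries did not overlap for 61 members (39.6%), 43 of them higher and 18 lower in NaCl, against 36.1% of all tested genes. By direction, 27.9% of the members were higher and 11.7% lower, against 23.6% and 12.4% of all tested genes. The lean towards positive values depended on the scaling of the libraries. Quantile normalization, which lowered the median of all tested genes by 0.10 to 0.08, left 86 members (55.8%) positive with a median of 0.03. Scaling to the upper quartile, which lowered the median of all genes by 0.12 to 0.06, left 74 (48.0%) positive and turned the members' median to -0.01, beside 55.5% positive over all tested genes. Set against the median of all tested genes in the FPKM as deposited, 68 members lay above it and 86 below, and the lists below are read against that median of 0.18.

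The summed level of all 210 members was 5976, 5871 and 5762 FPKM in NaCl, against 6285, 5940 and 6067 FPKM in control. This was 1.10 to 1.14% of all FPKM in NaCl and 1.12 to 1.20% in control. The sum averaged 5870 ± 107 FPKM in NaCl and 6097 ± 174 FPKM in control (SD, n = 3 each), and the groups overlapped, since NaCl replicate 1 lay above control replicate 2.

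The U1 snRNP, which defines the start of the intron, had mostly positive values that did not pass. All 10 members with this term were tested, 9 had a positive fold change (9 with quantile normalization and 7 with upper-quartile scaling), and the median was 0.29, with a range of -0.05 to 0.44. Of the 10, 6 lay above the median of all tested genes, and 2 had an unadjusted p of 0.05 or less, beside 19.1% of all tested genes on the higher side. Summed over the group, the level was 611, 597 and 591 FPKM in NaCl, against 514, 598 and 510 FPKM in control. Control replicate 2 thus lay among the NaCl libraries and the other controls below them. The most abundant U1 gene, annotated as binding the U1 RNA, had 181, 166 and 175 FPKM in NaCl, against 187, 166 and 187 FPKM in control. It was the only negative member of the group, at -0.05 ± 0.15 (SE), and its groups overlapped.

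Genes of the U2 snRNP and of the U2 auxiliary factor, which binds next to the end of the intron, were close to the median of all genes. Of 12 members 10 were tested, 8 positive and 2 negative, with no call and a median of 0.14 that became -0.01 with upper-quartile scaling. The pair annotated to the auxiliary factor (U2AF) pointed in opposite directions. The more abundant one averaged 71.6 FPKM in NaCl and 87.3 FPKM in control, a difference of -0.28 log2 units. The other had 19.9, 18.8 and 21.3 FPKM in NaCl, against 16.6, 18.5 and 15.3 FPKM in control, a difference of 0.24. Both pairs of groups were without overlap, and neither gene passed the test.

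The tri-snRNP brings the catalytic U6 RNA into the complex. Of 31 members with a U4, U6 or tri-snRNP term 20 were tested, 15 positive and 5 negative, and the median was 0.20 (0.06 with upper-quartile scaling). The U5 snRNP, which holds the exon ends, had 12 tested of 20 members, 10 of them positive, with a median of 0.18 (0.03 with upper-quartile scaling). The 2 lists share members. A gene annotated as binding both the U4 and U6 RNAs had 8.96, 7.55 and 8.80 FPKM in NaCl, against 5.37, 7.25 and 4.58 FPKM in control. Its change was 0.50 ± 0.20 (SE), with an adjusted p of 0.146 from limma. Another tri-snRNP gene, also annotated to Cajal bodies, where snRNPs mature, and to nuclear speckles, had 39.8, 35.2 and 36.9 FPKM in NaCl, against 26.2, 30.7 and 23.2 FPKM in control. Its change was 0.47 ± 0.15 (SE), with an adjusted p of 0.0994. In both genes the NaCl libraries lay above all controls, and control replicate 2 was the nearest of the controls.

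A set of 3 genes carries the terms of all 4 particles, the annotation pattern of proteins of the core shared by the snRNPs. Their summed level was 246, 271 and 248 FPKM in NaCl, against 182, 270 and 194.9 FPKM in control. Here the groups overlapped only through control replicate 2, and the median change was 0.36 (0.21 with upper-quartile scaling). The genes averaged 49.0 FPKM in NaCl and 36.5 FPKM in control, 62.4 FPKM in NaCl and 49.6 FPKM in control, and 143 FPKM in NaCl and 130 FPKM in control.

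Of the Prp19 complex, which carries ubiquitin ligase activity and helps to activate the spliceosome, 6 of 8 members were tested, 5 were positive and the median was 0.26. This median was 0.09 with quantile normalization and 0.12 with upper-quartile scaling. The gene with the highest value in the group had 60.6, 51.4 and 49.3 FPKM in NaCl, against 37.0, 46.9 and 38.7 FPKM in control, a change of 0.39 ± 0.15 (SE) that did not pass. The exon junction and THO complexes mark spliced RNA and link it to export. They had 5 tested of 6 members, 4 of them positive, with a median of 0.19 (0.05 with quantile normalization and with upper-quartile scaling).

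The cap binding complex sits on the start of the new transcript, and both of its genes were tested. One had 19.2, 18.4 and 21.6 FPKM in NaCl, against 14.4, 16.2 and 13.4 FPKM in control, without overlap. The other had 17.8, 17.5 and 18.5 FPKM in NaCl, against 13.4, 18.1 and 10.9 FPKM in control, and control replicate 2 lay inside the NaCl range. Their changes were 0.40 and 0.35. Their median of 0.38 became 0.20 with quantile normalization and 0.24 with upper-quartile scaling. Prolyl isomerases, enzymes that turn peptide bonds at proline, gave 2 tested of 3 members. The one with the larger change had 48.5, 45.1 and 49.0 FPKM in NaCl, against 32.6, 42.0 and 29.5 FPKM in control, a change of 0.46 ± 0.16 (SE) with an adjusted p of 0.123.

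RNA helicases, which unwind RNA at each step of splicing, lay lower as a list. Of 26 members 19 were tested, 12 positive and 7 negative, with a range of -0.48 to 0.45 and a median of 0.03 that turned to -0.06 with quantile normalization and -0.08 with upper-quartile scaling. The helicase with the most negative change had 62.5, 65.0 and 62.0 FPKM in NaCl, against 94.7, 76.5 and 94.8 FPKM in control. It did not pass, with -0.48 ± 0.14 (SE) and an adjusted p of 0.0938, although all NaCl libraries lay below all controls. The most abundant helicase had 126, 133 and 135 FPKM in NaCl, against 172, 144 and 168 FPKM in control, at -0.29 ± 0.15 (SE). A helicase with a near-zero change averaged 22.8 ± 1.80 FPKM in NaCl and 22.9 ± 1.30 FPKM in control (SD, n = 3 each).

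**Figure D2:**
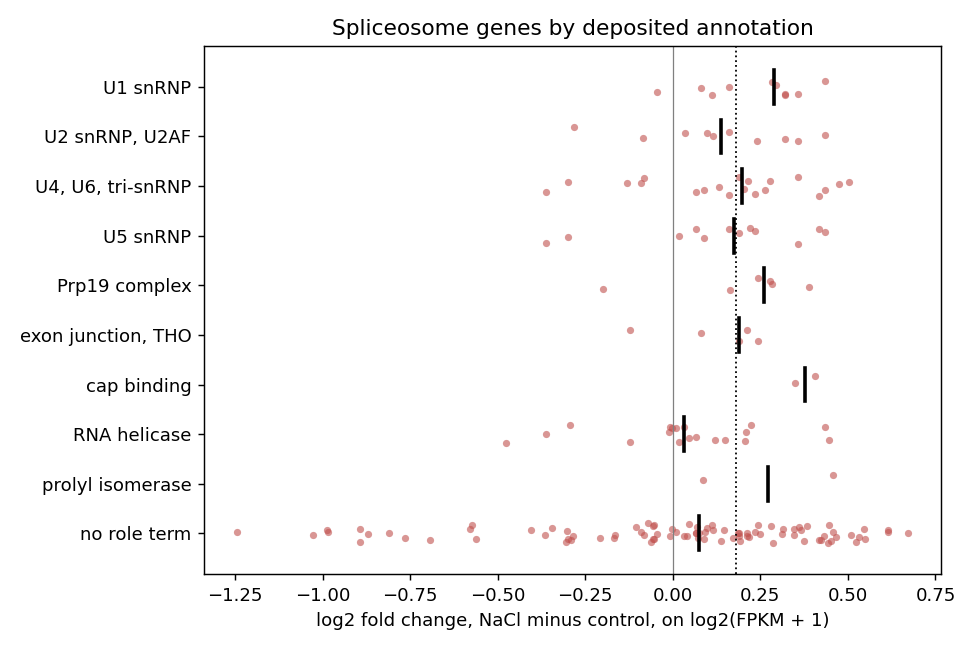
Log2 fold change on log2(FPKM + 1), NaCl minus control, of each tested spliceosome gene (points, moved apart vertically at random for legibility) by the deposited annotation, with the median of each list as a thick bar and the median of all tested genes, 0.18, as a dotted line. A gene with several terms appears in several rows, and every value below -0.5 is in the row of genes with no role term. That row includes genes of the U12-type and catalytic step 2 spliceosomes, whose lowest values are -0.99 and -0.89.

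The members split differently by whether they carry a role term. The 65 tested members with a role term had 50 positive and 15 negative values, a median of 0.16 and a range of -0.48 to 0.50. The 89 tested members without one had 53 positive and 36 negative values, a range of -1.24 to 0.67 and a median of 0.07 that turned to -0.02 with quantile normalization and -0.06 with upper-quartile scaling. Of the 12 lower members at an unadjusted p of 0.05 or less, 11 were among the 89 without a role term. So were 15 of the 25 higher ones. The 65 with a role term held 1 lower and 10 higher. Over all tested genes, 11.2% were lower and 19.1% higher at that threshold. The set without a role term includes members of the U12-type and catalytic step 2 lists, and the catalytic step 2 list held 2 of the 12 lower ones. The difference between these sets was not tested.

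The lowest log2 fold change on the log2(FPKM + 1) scale belonged to Cs_ont_4g007320, a gene with no component or function term and 1 of the 5 most abundant members. It had 88.3, 87.8 and 66.2 FPKM in NaCl, against 248, 95.2 and 294 FPKM in control. The NaCl libraries lay below every control, but control replicate 2 was near them and far from the other controls. The change was -1.24 ± 0.42 (SE), with a 95% confidence interval of -2.24 to -0.24 and an adjusted p of 0.113. With voom, which adds no pseudocount of 1 FPKM, it was at -1.25, and 4 members with means of at most 1.48 FPKM were lower, at -2.60 to -1.81, none of them passing.

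The next was Cs_ont_8g028010, also without a term. It had 70.7, 55.3 and 54.9 FPKM in NaCl, against 143, 80.8 and 160 FPKM in control, a change of -1.03 ± 0.28 (SE) with an adjusted p of 0.0805. These were the only members with an absolute change of at least 1, which is 1.30% of the members, against 5.62% of all tested genes on the lower side. On the higher side there were 0 members, against 4.58% of all tested genes.

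Other members at the lower end included genes with a stated place in splicing. A gene annotated to the catalytic step 2 spliceosome and to the complex left after release of the mRNA had 63.1, 65.5 and 58.0 FPKM in NaCl, against 118, 84.5 and 120 FPKM in control. Its change was -0.77 ± 0.18 (SE), with an adjusted p of 0.0613. A gene of the precatalytic spliceosome, the form before the first cut, had 35.7, 40.3 and 32.3 FPKM in NaCl, against 61.0, 44.8 and 58.2 FPKM in control. An RNA-binding member had 27.6, 26.7 and 23.4 FPKM in NaCl, against 45.4, 38.4 and 63.5 FPKM in control, at -0.87 ± 0.20 (SE). In all of these the groups did not overlap and control replicate 2 was the control nearest to NaCl. An mRNA-binding gene of the nucleolus, which the table also places in nucleocytoplasmic transport and mRNA surveillance, had 112, 109 and 95.1 FPKM in NaCl, against 215, 125 and 187 FPKM in control.

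The lowest adjusted p of any member, 0.0610, belonged to a gene with no term that varied little within its groups. It had 76.4, 86.0 and 82.6 FPKM in NaCl, against 121, 118 and 123 FPKM in control, a change of -0.56 ± 0.13 (SE). In this gene control replicate 2 did not stand apart from the other controls. Leaving out any library moved its change only between -0.60 and -0.51.

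The U12-type spliceosome handles the minor introns, and 11 of its 13 members were tested, 8 of them positive, with a median of 0.12 that turned to -0.03 with upper-quartile scaling. The list reaches down to -0.99 in low genes whose controls differed widely. One had 2.53, 3.65 and 2.88 FPKM in NaCl, against 8.79, 2.47 and 13.5 FPKM in control. A neighbour in identifier order, singled out after its values were seen, had 0.836, 0.592 and 0.135 FPKM in NaCl, against 3.45, 0.265 and 3.58 FPKM in control. This neighbour was at -0.99 on the log2(FPKM + 1) scale, at -1.60 without control replicate 2 (adjusted p of 0.0202) and at -1.86 with voom (adjusted p of 0.328). The groups overlapped in both genes through control replicate 2. Whether reads could be shared among neighbouring copies was not examined, so these values are uncertain.

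At the upper end the largest change was that of Cs_ont_6g006430, annotated to nuclear speckles, the stores of splicing factors, and as a transcription coactivator. It had 25.4, 14.3 and 18.6 FPKM in NaCl, against 11.5, 13.1 and 10.1 FPKM in control. The groups did not overlap, NaCl replicate 1 was the highest, and the change was 0.67 ± 0.23 (SE) with an adjusted p of 0.113. Cs_ont_7g018000, annotated as a transcription coregulator, was more even, with 18.0, 19.5 and 20.1 FPKM in NaCl, against 12.4, 13.6 and 10.6 FPKM in control. Its change was 0.62 ± 0.15 (SE), and its adjusted p of 0.0637 was the lowest among the positive members.

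An RNA-binding gene of nuclear speckles and the catalytic step 2 spliceosome had 33.5, 32.2 and 33.0 FPKM in NaCl, against 23.0, 25.0 and 19.0 FPKM in control, at 0.55 ± 0.14 (SE). A gene annotated to a cullin ubiquitin ligase and to damaged DNA had 16.7, 17.3 and 18.8 FPKM in NaCl, against 11.6, 14.8 and 9.69 FPKM in control. A member whose component term is the chloroplast had 35.4, 31.3 and 40.5 FPKM in NaCl, against 26.0, 23.8 and 19.2 FPKM in control. The chloroplast term is not that of a nuclear splicing factor, and its place in the list is the table's. Of the other 2 of the 8 largest positive changes without a term, one had 56.3, 56.1 and 55.5 FPKM in NaCl, against 34.2, 45.8 and 34.9 FPKM in control, and the other 29.3, 23.9 and 26.4 FPKM in NaCl, against 18.1, 22.0 and 14.9 FPKM in control. All of these had NaCl libraries above every control, and none passed.

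**Figure D3:**
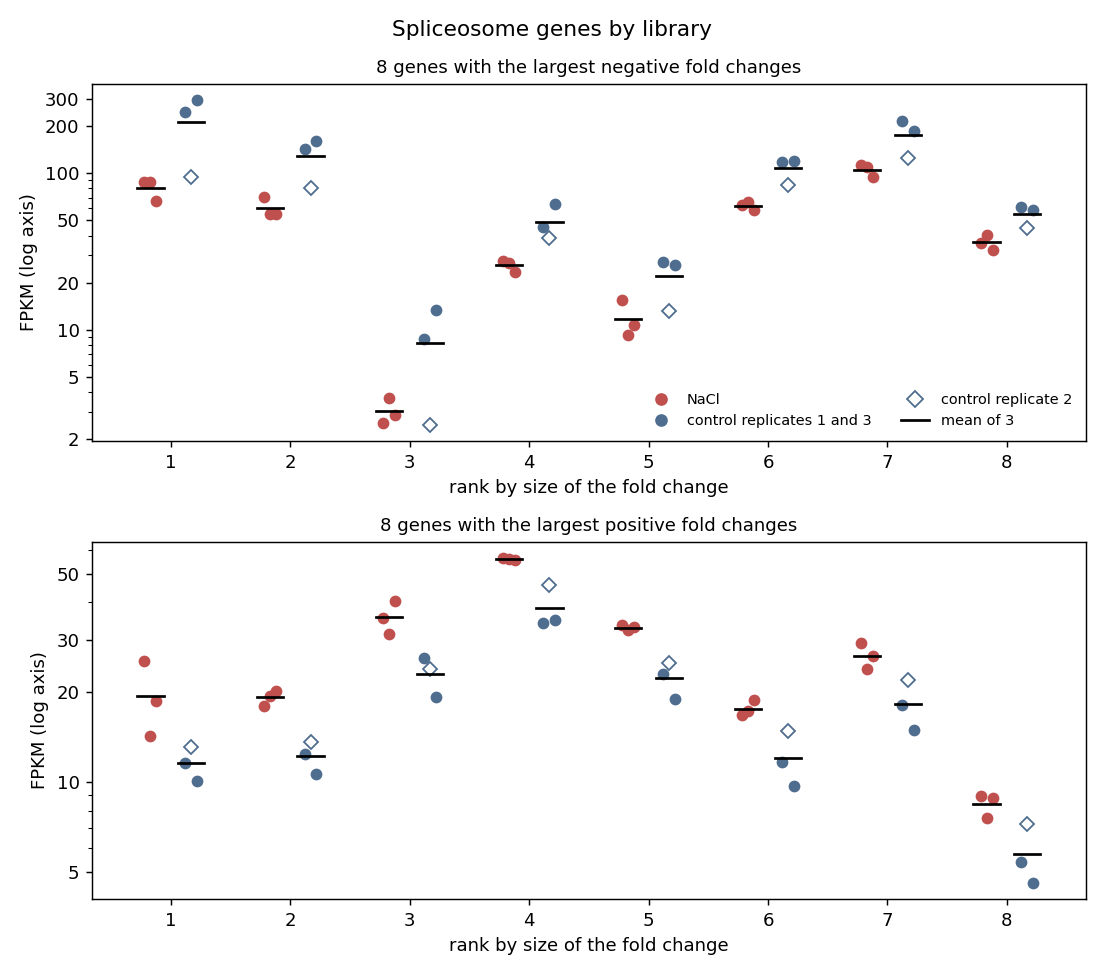
FPKM of single spliceosome genes in each library on a log axis, for the 8 largest negative (top) and 8 largest positive (bottom) fold changes among members with at least 5 FPKM in the higher group, with NaCl libraries left of control libraries and a bar at the mean of 3. Control replicate 2 (open diamond) is the control nearest to the NaCl libraries in all 8 genes of the top panel, and in the gene of rank 1 there it lies at 95.2 FPKM, against 248 and 294 FPKM in the other controls.

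Of 5 classes of level, only the most abundant had a negative median fold change in the FPKM as deposited. Of the 12 members with a mean of at least 100 FPKM, 3 were positive and 9 negative, with a median of -0.25, where all tested genes of that level had a median of 0.08. This group is small, and its values are a description. Of the 50 members with 10 to 25 FPKM, 40 were positive, with a median of 0.20 beside 0.24 for all tested genes of that level, and of 0.03 with quantile normalization. The 42 members of 25 to 50 FPKM had 31 positive values and a median of 0.21 beside 0.19. Below 10 FPKM, 15 of 24 members were positive, and their median of 0.09 turned to -0.01 with upper-quartile scaling. At 50 to 100 FPKM, 14 of 26 were positive, and their median of 0.08 turned to -0.07 with upper-quartile scaling. In the most abundant class the median was -0.21 with quantile normalization and -0.40 with upper-quartile scaling, so its direction held under both.

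In sums, the 12 most abundant members gave 1502, 1538 and 1447 FPKM in NaCl, against 2013, 1681 and 2016 FPKM in control. The 50 members of 10 to 25 FPKM gave 996, 916 and 969 FPKM in NaCl, against 838, 899 and 811 FPKM in control. Neither pair of groups overlapped, and they lay in opposite directions in the FPKM as deposited. The median change of the 10 to 25 FPKM class shrank to 0.03 with quantile normalization and 0.06 with upper-quartile scaling. The size of its rise thus depended on the scaling, and all tested genes of that level rose as well, with a median of 0.24. The most abundant member of all, which the table also places in ribosome biogenesis, had 175, 217 and 177 FPKM in NaCl, against 331, 235 and 285 FPKM in control, at -0.57 ± 0.20 (SE) with an adjusted p of 0.122. Another of the 5 most abundant members, without a term, had 137, 126 and 129 FPKM in NaCl, against 163, 138 and 153 FPKM in control, at -0.21 ± 0.15 (SE).

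**Figure D4:**
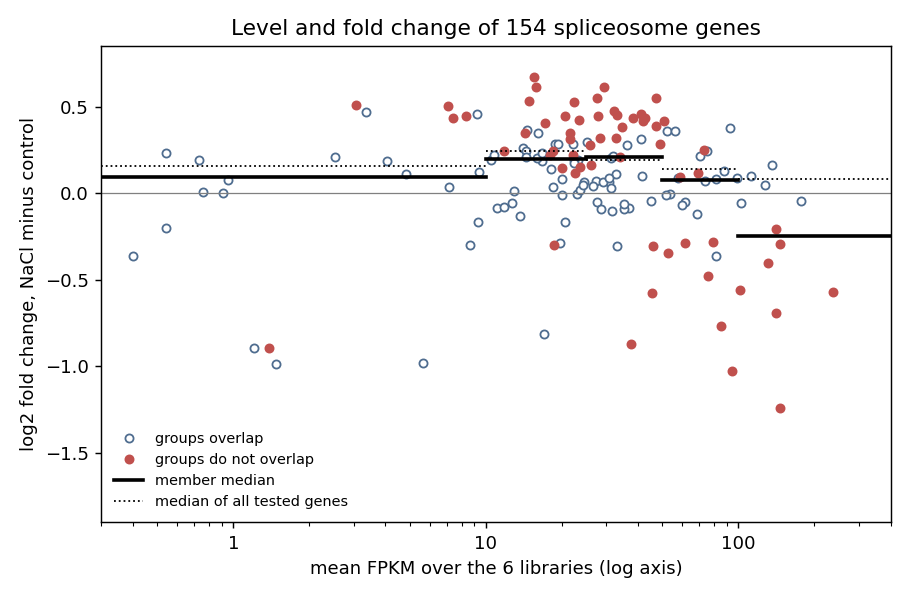
Mean FPKM over the 6 libraries (x, log axis) and log2 fold change, NaCl minus control (y), of the 154 tested spliceosome genes, filled where the NaCl and control libraries do not overlap, with member medians (thick bars) and medians of all tested genes (dotted) in 5 classes of level. From 100 FPKM upwards the member median is -0.25 and that of all tested genes 0.08.

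The 8 members with the largest negative changes, among those with at least 5 FPKM in the higher group, summed to 416, 398 and 343 FPKM in NaCl, against 866, 484 and 923 FPKM in control. They held 9.55% of the summed level of all members. The other 202 members summed to 5560, 5473 and 5419 FPKM in NaCl, against 5419, 5456 and 5144 FPKM in control. The 8 were chosen by their fold change, so the direction of their sum is fixed by that choice, and leaving them out must raise the other sum in NaCl relative to control.

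Some well expressed members were alike in both groups. Those given here were chosen as the smallest changes above 20 FPKM, so their likeness is fixed by that choice. A gene annotated to the mRNA cleavage factor complex averaged 53.6 ± 4.53 FPKM in NaCl and 53.6 ± 2.23 FPKM in control (SD, n = 3 each), with a 95% confidence interval of its change of -0.31 to 0.30. A further gene averaged 19.97 ± 2.09 FPKM in NaCl and 20.03 ± 0.85 FPKM in control, with an interval of -0.33 to 0.31.

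The count of 0 member calls changed only when control replicate 2 was left out, and more of all tested genes were called then as well. For 112 of the 154 members (72.7%) this library was the control nearest to the NaCl mean, whereas it was so for 57.6% of all tested genes. Without it, limma called 19 members higher (12.3%) and 15 lower (9.74%), against 16.5% and 7.89% of all tested genes, and 6 of the lower ones (3.90% of the members) had an absolute change of at least 1, against 5.11% of all tested genes. On the higher side 0 members had such a change, against 5.30% of all tested genes. Leaving out any other library gave 0 member calls. All tested genes then gave 0.139% higher and 0.440% lower without NaCl replicate 1, 0.295% and 0.399% without NaCl replicate 2, and 0.00579% and 0.0231% without NaCl replicate 3. They gave 0% and 0.0116% without control replicate 1, and 0% in both directions without control replicate 3.

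Without that library, the called members with a role term were 9 higher and 1 lower, and those without one 10 higher and 14 lower. The U4, U6 and tri-snRNP list then had 5 higher of 20 tested members, the U1 list 3 of 10 and the U2 list 3 of 10, with 0 lower in each. The U5 list had 2 higher of 12, and the Prp19 list with 6 tested members and the exon junction and THO list with 5 had 0 calls. The helicases had 1 higher and 1 lower of 19, and the U12-type list 3 higher and 2 lower of 11. The 2 lower U12-type genes are counted above as without a role term. Cap binding and prolyl isomerase genes had 1 higher of 2 in each list. Many of these lists share members, and the share of all tested genes in that fit was 16.5% higher and 7.89% lower. Cs_ont_4g007320 was then at -1.74 with an adjusted p of 0.0141, Cs_ont_8g028010 at -1.33 with 0.0154, and Cs_ont_7g018000 at 0.69 with 0.0250. Cs_ont_6g006430, at 0.76, had an adjusted p of 0.0797 and did not pass there either. The labels give no reason to leave this library out.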

How the data were processed

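The authors deposited 1 table of FPKM per gene for all 6 libraries. Per the labels and the study's methods, reads were mapped with HISAT2 to a sweet orange genome; the labels name HTSeq and the methods featureCounts for counting. The table's group means, fold changes, p-values and calls, made by the authors, were not used, and 0 per-sample columns were left unmapped. The methods give a reverse-stranded setting for the mapping and list no strand option for the counting, so reads of overlapping antisense genes may be mixed.

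A gene entered the fit if 3 or more libraries reached 0.5 FPKM, and the fit was made with limma 3.58.1 (R 4.3.3) on log2(FPKM + 1) with a mean-variance trend, without covariates, two-sided, with Benjamini-Hochberg adjustment over all 17285 genes. The pseudocount of 1 understates changes of low genes. An exact permutation test of 3 against 3 cannot go below 0.1. Whole reads could be recovered from the FPKM for 100% of 23073 genes above 0 (relative tolerance 1e-09), and gave the library totals and a voom alternative. Tables and plots were made with Python 3.11.15, pandas 2.3.3 and matplotlib 3.10.9. The fit was also tested on simulated data, but no outcome is given here and nothing about these libraries is drawn from it.

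Members and lists were chosen with earlier results of these data known. Role lists came from GO component and function terms, as no KEGG orthology numbers were used here; the U12-type, catalytic step 2 and nuclear speckle lists were added after the annotation was seen. GO process terms were left aside. Single genes were taken as the 8 largest changes each way among members with at least 5 FPKM in the higher group, the 5 lowest adjusted p each way, the 5 highest levels and the 3 smallest changes above 20 FPKM, with role examples added after their values were seen. Alternatives covered the pseudocount, filter, scaling, replicate block, voom and leaving out each library.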

Additional observations from a re-analysis of the deposited data

How the results depend on the processing

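Member calls appeared only when control replicate 2 was left out. Leaving out 1 library at a time gave 0 to 19 members higher, 0 to 15 lower and 0 to 6 lower with an absolute log2 change of at least 1, the upper ends all without control replicate 2, and member medians of 0.07 to 0.16. The cause was not tested. The member median moved to 0.033 with quantile normalization and to -0.0148 with upper-quartile scaling, against 0.11 in the FPKM as deposited. Pseudocounts, filters and voom left the member calls at 0. Of 17285 genes, the pseudocount of 0.1 called 175 higher and 270 lower, that of 0.01 called 128 and 207, and voom 183 and 288. The filter of 1 FPKM called 252 higher and 362 lower of 15939 genes. With no filter only 12 and 29 of 23073 genes were called, so 0 members there says little. The replicate numbers gave no sign of pairing the samples. Correlations were -0.03, 0.03 and -0.07 for the same number and -0.07 to 0.13 for different numbers. These values cannot establish that the samples were unpaired. A fit with the replicate block called 0 members in each direction, with a member median of 0.11. It called 1 higher and 6 lower of 17285 genes, so 0 members there says little. Of the alternative values for the 25 genes named by rule, 323 kept direction and side of the threshold, 17 passed it, all without control replicate 2, and 10 changed sign. The sign changes were in genes near 0. The mRNA cleavage factor gene lay between -0.0644 and 0.0544, the helicase with a near-zero change between -0.0682 and 0.0325, and the further gene near 20 FPKM between -0.0860 and 0.0521 when libraries were left out. The most abundant U1 gene was at 0.00878 with quantile normalization. At this depth 56 members were too low to be tested.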
